A study of Mus musculus with 34 samples.

Results

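The diet by time interaction asks whether the effect of a high fat diet (HFD) on visceral fat's stromal vascular fraction (SVF) was the same after 20 weeks as after 8 weeks. It was taken over all 21 of the 34 SVF libraries that were harvested at these times, as the HFD minus CHOW difference at 20 weeks minus the same difference at 8 weeks. All 4 groups were male C57BL/6J mice, fed from 6 weeks of age, and each library came from the perigonadal fat pad. The CHOW 8 week group (n = 4) and the CHOW 20 week group (n = 5) ate a control diet, D12450B or D12450K, and the labels do not say which of these a mouse ate. The HFD 8 week group (n = 6) and the HFD 20 week group (n = 6) ate D12492, with 60% of its energy from fat. The labels do not say whether a library was made from 1 mouse or from a pool, so the p-values measure the spread between these libraries. Age, time on the diet and harvest cannot be told apart between 8 and 20 weeks, and each diet comparison was made within a harvest time.

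The SVF is the pellet that collagenase-digested fat leaves once the adipocytes have floated off, and it holds macrophages, mast cells, lymphocytes, fibroblasts, vascular cells and mesothelium. Mast cells are tissue-resident granulocytes that store tryptases, chymases and carboxypeptidase with histamine and serotonin, and that carry the high-affinity IgE receptor. Resident macrophages of fat lie along vessels and express scavenger receptors and C-type lectins. Macrophages that gather around dying adipocytes in obesity instead carry lipid-handling and lysosomal genes. In bulk libraries such as these, fewer cells of a type and less RNA per cell cannot be told apart.

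Values were in TPM, the transcripts of a gene for a fixed total of transcripts, which are length-corrected shares of a library, so a large rise in some genes lowers the share of the others. The adipose progenitor and fibroblast list summed to between 5365 and 10690.0 TPM per library and the adipocyte list to between 533 and 2935 TPM, as the label of the fraction implies. Some libraries held RNA of other sources. Globin and other erythroid genes took between 1.26% and 26.8% of the TPM, with the highest share in HFD 8 week replicate 6 and between 1.26% and 3.05% in the HFD 20 week group. Seminal vesicle genes took 12.3% of HFD 8 week replicate 3 and at most 0.00159% of any other library. Testis germ cell genes took 1.41% of HFD 20 week replicate 5 and at most 0.339% elsewhere. With these 3 libraries left out together, 32 of the 50 interaction calls described next remained. Among the genes named below, Cma1, Cadm1, Fbln7, Cyp11a1, Nfasc, Abcb4, Fndc5, Atp8b5, Tmem120a, Klrg1, Sprr1a and Igkv4-68 were no longer called.

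Of 16808 genes tested, 50 were called for the interaction (0.297%) at an adjusted p under 0.05 with limma on log2(TPM + 1). An unadjusted interaction p under 0.05 was held by 2318 of the 16808, and 1746 of these had a difference above 0. The counts of list genes at that threshold below are best read against these. The difference was above 0 for 27 of the called genes, which means a more positive HFD effect at 20 than at 8 weeks, and below 0 for 23. The positive genes were led by mast cell proteases, with Tpsab1 highest at 3.20 ± 0.55 (log2 difference ± SE). The negative genes were led by the ribonuclease Rnase2a at -5.69 ± 0.95 and held 4 C-type lectin genes of the CD209 family on chromosome 8. The median difference over all genes tested was 0.18, and 68.8% of genes had a difference above 0, so single differences are best read against that shift.

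**Figure D1:**
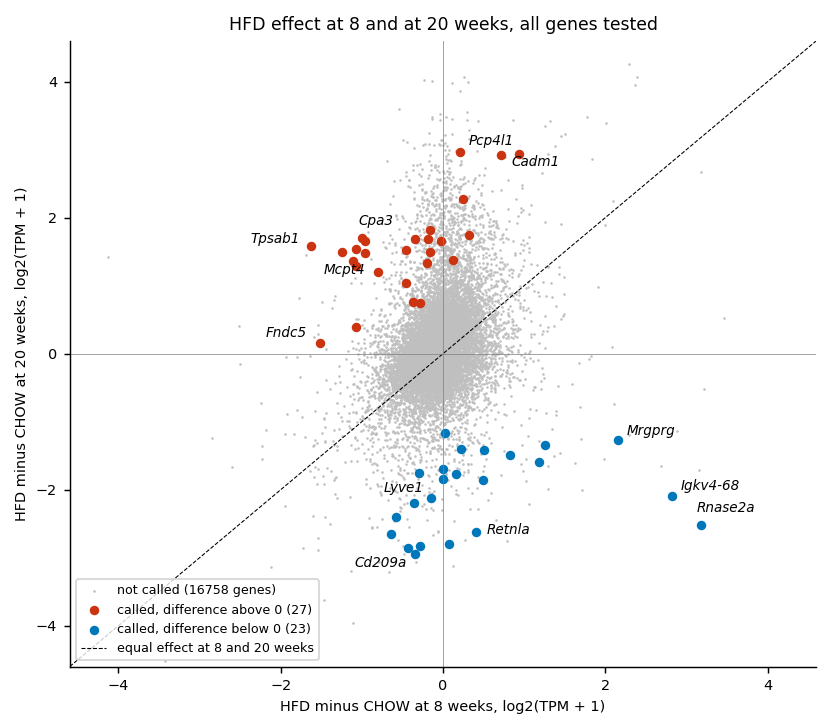
Each point is 1 gene, placed by its HFD minus CHOW difference at 8 weeks (horizontal axis) and at 20 weeks (vertical axis), both in log2(TPM + 1); the dashed line marks equal effects. The 27 genes called with a positive difference (red) lie above the line and the 23 with a negative difference (blue) below it. All red points have an effect above 0 at 20 weeks and all blue points one below 0, while both sets lie on either side of 0 at 8 weeks.

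The 2 HFD effects that make up each interaction are described next, which is no further test of it. At 20 weeks the HFD effect was called for 25 of the 27 positive genes as higher (9.32% of all genes tested) and for 22 of the 23 negative genes as lower (4.99%). At 8 weeks it was called for 1 of the 50, the irisin precursor Fndc5 (0.0238%). The effects had opposite signs at 8 and 20 weeks for 35 of the 50, and for the other 15 the effect had the same sign and was larger at 20 weeks. No called gene had its larger effect at 8 weeks with the same sign at 20. Over the 27 positive genes the median HFD effect was -0.37 at 8 weeks and 1.52 at 20 weeks, and over the 23 negative genes it was 0.07 and -1.86, against -0.08 and 0.08 over all genes. Along the HFD groups, 27 of the 27 positive genes were called higher at 20 than at 8 weeks (6.12%) and 22 of the 23 negative genes lower (2.65%). Counted by overlap, 7 of the 27 positive genes were lower in every HFD than in every CHOW library at 8 weeks (1.77% of all genes), and 1 of the 23 negative genes was higher (0.339%). At 20 weeks, 17 of the 27 were higher without overlap (5.5%) and 20 of the 23 lower (3.69%). Between the HFD groups, 26 of the 27 were higher at 20 weeks without overlap (2.89%) and 15 of the 23 lower (1.29%). Along the CHOW groups, 1 of the 50 was called (0.613%), the immunoglobulin segment Igkv4-68.

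How many genes were called depended strongly on single libraries. Leaving out CHOW 8 week replicate 4 left 13 calls, replicate 1 left 26, HFD 8 week replicate 1 left 22 and replicate 6 left 33. Leaving out CHOW 20 week replicate 1, 3, 4 or 5 left 22, 22, 24 and 28 calls, and leaving out HFD 20 week replicate 1, 2 or 6 left 23, 22 and 23. Leaving out HFD 8 week replicate 2 or CHOW 20 week replicate 2 raised the count to 133 and 151, and in both all 50 genes remained called. Across the 21 fits without 1 library, 13 of the 50 genes were called in every one. Of these, Tpsab1, Tpsb2, Pcp4l1, Rnase2a, Retnla, Cd209a, Cd209b, Cd209d, Lyve1 and Cd163 are described below. None of the 50 differences changed sign in any fit or alternative in which the gene was tested. The split of the calls moved with the scaling, since 54% were positive as deposited, 35.3% of 85 after median-ratio scaling and 17.3% of 104 after quantile normalization, where the median over all genes was 0.03 and -0.02.

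Mast cell genes were the largest group among the positive calls. Of the 15 mast cell list genes tested, 8 were called, all positive, and the other 7 also had a difference above 0. The list median was 2.35, against 0.18 over all genes. At 8 weeks the HFD effect was below 0 for 14 of the 15, where 0 were called by limma and 9 had an unadjusted p under 0.05. The share of all genes with such a p at 8 weeks was not computed. At 20 weeks the HFD effect was above 0 for all 15, where 13 were called (9.32% of all genes). The median HFD effect over the 15 was -0.96 at 8 weeks and 1.35 at 20 weeks. The libraries did not overlap between HFD and CHOW at 8 weeks for 5 of the 15, all lower on HFD (1.77% of all genes), and at 20 weeks for 2, both higher on HFD (5.5%). On HFD, 12 of the 15 were higher in every 20 week library than in every 8 week library (2.89%). The exceptions in sign were Kit at 8 weeks and Gata2 between the HFD groups, both described below. The summed level of the 18 listed genes ran from 374 to 669 TPM in CHOW 8 week, 158 to 335 in HFD 8 week, 584 to 863 in CHOW 20 week and 700.3 to 3132 in HFD 20 week libraries.

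Tpsab1 (chromosome 17, 25343245 to 25345562, GRCm38) and Tpsb2 (chromosome 17, 25366305 to 25369098) encode the tryptases stored in mast cell granules. Tpsab1 was at 14.7, 18.99, 27.4 and 49.9 TPM in the CHOW 8 week libraries, and the HFD 8 week libraries ran from 4.30 through a median of 7.08 to 13.8. At 20 weeks the CHOW libraries were at 22.3, 24.1, 26.4, 31.03 and 38.0 TPM and the HFD libraries ran from 31.9 through 99.8 to 154. Every HFD library was thus below every CHOW library at 8 weeks, and at 20 weeks 1 HFD library fell within the CHOW range. The HFD effect was -1.62 ± 0.40 at 8 weeks (adjusted p = 0.149) and 1.58 ± 0.38 at 20 weeks (adjusted p = 0.00893), and the adjusted p of the interaction was 0.0155.

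Tpsb2 showed the same order at a higher level. Its CHOW 8 week libraries held 74.1, 81.2, 86.1 and 129 TPM, against 32.5 to 65.2 with a median of 48.03 in HFD 8 week. At 20 weeks CHOW was at 129.8, 141, 141, 145 and 185 TPM and HFD at 191 to 864 with a median of 539. The diets were apart at both times, in opposite directions, with an interaction of 2.62 ± 0.42 (adjusted p = 0.0108). Tpsg1, which encodes the membrane-anchored tryptase and lies next to Tpsb2 with 3 kb between their starts, was low and had an interaction of 2.35 ± 0.48 (adjusted p = 0.033). Its HFD 8 week libraries ran from a listed 0 to 0.972 TPM and its HFD 20 week libraries from 2.44 to 12.95. The transcripts of Tpsab1 and Tpsb2 were 77.3% identical over 898 aligned bases, so some reads could be shared between them, and the part of this in their values was not tested.

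Mcpt4 (chromosome 14, 56059629 to 56062313) and Cma1 (chromosome 14, 55941451 to 55944675) encode chymases and lie 118.2 kb apart. Mcpt4 was at 91.2, 92.0, 102 and 179.8 TPM in CHOW 8 week, and at 28.8 to 73.6 with a median of 48.1 in HFD 8 week. It was at 129, 149, 149, 155 and 209 TPM in CHOW 20 week and at 164 to 748 with a median of 574 in HFD 20 week. At 8 weeks the diets did not overlap, and at 20 weeks the lowest HFD library lay inside the CHOW range. The interaction was 2.75 ± 0.49 (adjusted p = 0.0167), and it was lost only without CHOW 8 week replicate 4 (adjusted p = 0.0637), the highest library of its group. Cma1 ran from 23.96 to 64.7 TPM in HFD 8 week and from 115 to 668 in HFD 20 week, with an interaction of 2.47 ± 0.52 (adjusted p = 0.0426).

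Cpa3 (chromosome 3, 20215620 to 20242181), the mast cell carboxypeptidase, was at 35.0, 40.8, 49.2 and 58.2 TPM in CHOW 8 week and at 11.9 to 39.6 with a median of 24.6 in HFD 8 week. At 20 weeks it was at 48.9, 59.5, 61.9, 63.6 and 86.8 TPM on CHOW and at 75.1 to 359 with a median of 270.2 on HFD. The diets overlapped at both times by single libraries, and every HFD 20 week library was above every HFD 8 week library. Its interaction was 2.70 ± 0.52 (adjusted p = 0.0263).

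Fcer1a (chromosome 1, 173221284 to 173227214) encodes the IgE-binding chain of the high-affinity receptor, and it was at 4.79, 5.28, 7.14 and 10.9 TPM in CHOW 8 week. HFD 8 week libraries ran from 1.10 to 5.06 TPM with a median of 2.63, CHOW 20 week libraries were at 6.86, 8.34, 14.0, 16.1 and 21.5, and HFD 20 week libraries ran from 13.5 to 62.2 with a median of 50.0. The order of the groups was that of Cpa3, with an interaction of 2.61 ± 0.56 (adjusted p = 0.047). Tph1, the rate-limiting enzyme of serotonin synthesis outside the brain, rose from a median of 1.43 TPM in HFD 8 week to 16.6 in HFD 20 week, with an interaction of 2.44 ± 0.48 (adjusted p = 0.0308). Kit and Gata2, which the naming rule did not select, are the stem cell factor receptor and a transcription factor of the mast cell lineage that other SVF cells also express. Their interactions were 0.92 and 0.19 and were not called.

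**Figure D2:**
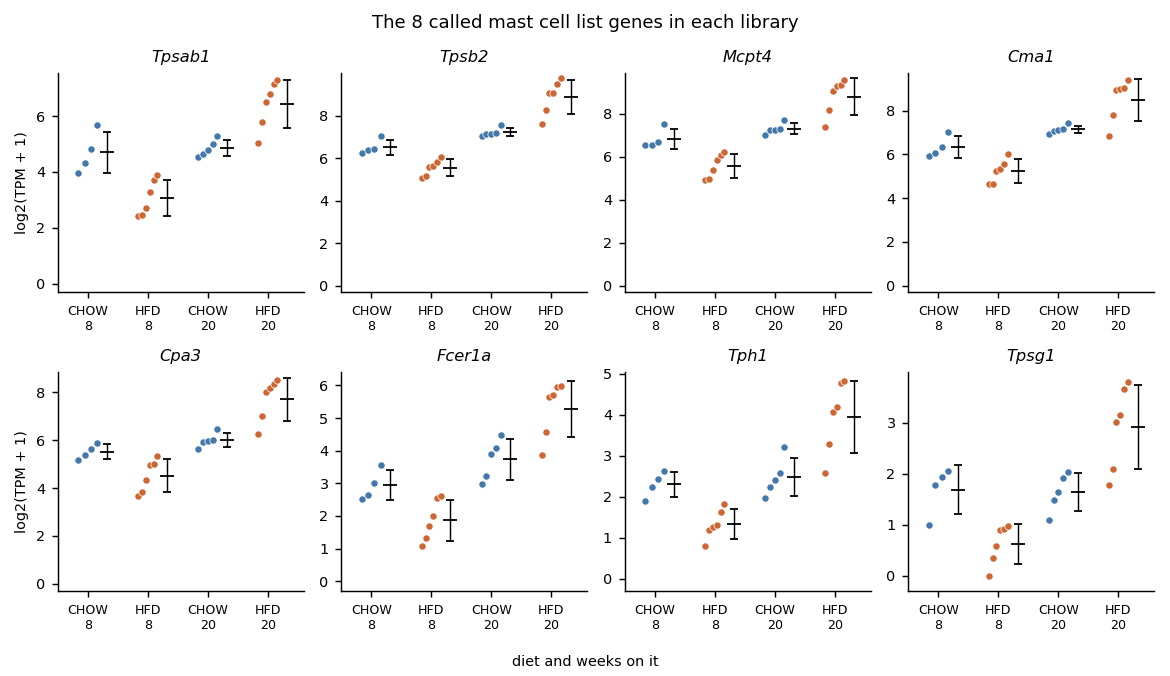
Each panel shows 1 called mast cell list gene as log2(TPM + 1) in every library (points, CHOW blue and HFD orange, ordered by value within a group), with the group mean and SD as a black bar. In all 8 panels the HFD 8 week mean is the lowest and the HFD 20 week mean the highest, and the lowest HFD 20 week libraries lie near the CHOW 20 week range.

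The same libraries tended to be extreme for these genes. HFD 20 week replicate 4 was the lowest of its group for 7 of the 8 called mast genes and replicate 2 the highest for 7, and CHOW 8 week replicate 4 was the highest of its group for 6. Without HFD 20 week replicate 4 there were 11 mast calls, and without CHOW 8 week replicate 4 there were 2. Without any 1 of CHOW 20 week replicates 1, 3 and 4, HFD 8 week replicate 1 or HFD 20 week replicates 1, 2 and 6 there were 3, 4 without CHOW 20 week replicate 5 or CHOW 8 week replicate 1 or 3, and 5 without CHOW 8 week replicate 2, HFD 8 week replicate 4 or HFD 20 week replicate 3. Tpsab1 and Tpsb2 stayed called in all 21 of these fits, Mcpt4 in 20, Cpa3 in 12, Tph1 in 10, Tpsg1 in 7, and Cma1 and Fcer1a in 6. The list median stayed between 2.10 and 2.68 under every alternative tried. Leaving erythroid, germ cell, seminal vesicle and epididymis genes out of the total gave a median of 2.31 with 6 calls, median-ratio scaling gave 5 and quantile normalization 3.

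The promoters of Cpa3 and Fcer1a are shown because both genes followed the mast cell pattern and both windows hold AGATAA. This is a form of the letters bound by GATA factors, the family of the mast cell regulator Gata2. The windows are the 250 bases before the RefSeq start (GRCm38.p6), written in the direction of the gene. The motif AGATAA, searched on both strands, is in capitals, and it is read as TTATCT where it lies on the other strand.
Cpa3, chr3:20242182-20242431, minus strand: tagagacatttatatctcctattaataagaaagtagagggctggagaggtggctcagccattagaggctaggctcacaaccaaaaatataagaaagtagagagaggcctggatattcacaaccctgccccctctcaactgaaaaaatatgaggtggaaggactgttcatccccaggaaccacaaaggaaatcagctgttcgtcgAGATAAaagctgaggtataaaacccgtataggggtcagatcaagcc
Fcer1a, chr1:173227230-173227479, minus strand: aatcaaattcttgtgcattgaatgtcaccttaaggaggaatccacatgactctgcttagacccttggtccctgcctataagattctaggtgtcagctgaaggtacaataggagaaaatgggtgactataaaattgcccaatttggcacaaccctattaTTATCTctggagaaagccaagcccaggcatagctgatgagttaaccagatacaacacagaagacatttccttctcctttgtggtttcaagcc
This exact motif was in 10.0% of 32851 windows of that length, and the windows of Mcpt4 and Cma1 did not hold it. The windows of the other called mast genes, Tpsab1, Tpsb2, Tpsg1 and Tph1, were not searched. Other forms of the GATA site were not counted in the 32851 windows. The Mcpt4 window holds the related letters TGATAA, and the Cma1 window holds CTATCT, which reads AGATAG on the other strand. A match describes these letters and is no evidence of binding here.

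Cyp11a1 and Cadm1 are known from mast cells and basophils but stand outside the mast list. Cyp11a1 (chromosome 9, 58006411 to 58027023), which cleaves the cholesterol side chain in steroid synthesis, was at 2.58, 3.16, 3.41 and 6.10 TPM in CHOW 8 week and at 1.10 to 2.27 with a median of 1.73 in HFD 8 week. It was at 4.30, 5.30, 5.59, 5.94 and 6.53 TPM in CHOW 20 week and at 5.70 to 23.5 with a median of 15.9 in HFD 20 week. The diets were apart at 8 weeks and overlapped at 20 weeks, with an interaction of 2.00 ± 0.40 (adjusted p = 0.0312). Cadm1, an adhesion molecule found on mast cells and on many other cells, behaved differently from the proteases. It was no lower on HFD at 8 weeks (0.71 ± 0.34, adjusted p = 0.52) and ran from 41.3 to 83.0 TPM in HFD 20 week against 3.97 to 13.8 in CHOW 20 week, with an interaction of 2.21 ± 0.47 (adjusted p = 0.0453). Of the 21 fits without 1 library, Cyp11a1 was called in 9 and Cadm1 in 4, and both were also lost with no filter on low values. Of the basophil list, Cyp11a1 was the 1 call of 3 tested, and Mcpt8, the basophil protease, was too low to be tested. All 3 had a difference above 0 and an unadjusted p under 0.05, and the list median was 1.60. Their median HFD effect was -0.80 at 8 weeks and 1.20 at 20 weeks, so this turn of sign was not particular to the mast cell list.

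Of the other named positive genes, Pcp4l1, Fbln7, Nfasc and Abcb4 did not overlap between diets at 20 weeks. Their HFD effects at 8 weeks were 0.21, 0.93, -0.16 and -0.19. None of these was called, as for every positive gene but Fndc5. Pcp4l1, a small protein related to the calmodulin regulator Pcp4, had the smallest interaction p of the positive genes (2.75 ± 0.33, adjusted p = 0.000868). It was at 1.10, 1.56, 1.90 and 2.88 TPM in CHOW 8 week, 1.34 to 4.30 with a median of 1.89 in HFD 8 week and 0.441, 1.11, 1.12, 1.23 and 1.26 in CHOW 20 week. In HFD 20 week it ran from 10.8 to 18.6 TPM with a median of 14.4, above every library of the other 3 groups. Fbln7, a matricellular fibulin, rose from a median of 4.53 TPM in HFD 8 week to 27.5 in HFD 20 week while CHOW 20 week stayed at 1.85 to 3.99, with an interaction of 2.01 ± 0.37 (adjusted p = 0.0184). Nfasc, the adhesion molecule neurofascin, was at 3.06 to 8.93 TPM in HFD 20 week and at most 2.50 in the other groups, with an interaction of 1.98 ± 0.38 (adjusted p = 0.0263). Abcb4, a phosphatidylcholine transporter, was at 5.83 to 9.30 TPM in HFD 20 week and at most 5.19 in the others, with an interaction of 1.87 ± 0.34 (adjusted p = 0.0184). Without 1 library, Fbln7 stayed called in 20 of 21 fits, Abcb4 in 19 and Nfasc in 12.

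Fndc5 was the only 1 of the 50 genes with a called HFD effect at 8 weeks, and its effect was not called at 20 weeks. It was at 3.97, 4.32, 6.37 and 7.69 TPM in CHOW 8 week and at 0.577 to 2.10 with a median of 1.33 in HFD 8 week. At 20 weeks CHOW was at 4.38, 5.37, 6.69, 6.98 and 9.49 TPM and HFD at 4.598 to 10.3 with a median of 7.38. The HFD effect was -1.52 ± 0.24 at 8 weeks (adjusted p = 0.0194) and 0.16 ± 0.22 at 20 weeks (adjusted p = 0.669), and the interaction of 1.68 ± 0.32 (adjusted p = 0.0263) was lost without the 3 libraries named above. This interaction call was also lost with no filter on low values and with the replicate number as a block. It held in 15 of the 21 fits without 1 library.

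Among the negative calls, genes of resident macrophages had a more negative HFD effect at 20 weeks than at 8 weeks. Of the 16 resident perivascular macrophage genes tested, 5 were called, all negative, and the list median was -1.0. Its median HFD effect was -0.41 at 8 weeks and -1.54 at 20 weeks. At 8 weeks 14 of the 16 were already below 0 and 3 were lower on HFD without overlap (1.77% of all genes). At that time 0 were called by limma and 7 had an unadjusted p under 0.05, a share not computed over all genes. At 20 weeks 10 were lower without overlap (3.69%) and 10 were called lower (4.99%). Not all members followed, since Folr2, Stab1, Selenop and Pf4 had differences above 0 that were not called. These 4 are named after their values were seen. At an unadjusted interaction p under 0.05 there were 9 list genes below 0 and 2 above 0. At 20 weeks 1 list gene was called higher on HFD (9.32% of all genes). The summed level of the list overlapped between all groups, at 4085 to 7842 TPM in HFD 20 week and 3995 to 7114 over the others. General macrophage genes moved the other way, with a median of 0.82 over 12 genes, all above 0, with 5 at an unadjusted p under 0.05 and 0 called by limma.

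The CD209 genes encode C-type lectins that bind mannose-rich glycans. The called genes Cd209a, Cd209d, Cd209b and Cd209g lie in this order on chromosome 8, with 128.4, 45.8 and 216.4 kb between successive starts. Cd209f, a member of the resident macrophage list that the naming rule did not select, was tested and not called. Cd209a (3743397 to 3748984), which is also used as a marker of monocyte-derived dendritic cells, was at 34.0, 34.8, 37.8 and 74.5 TPM in CHOW 8 week and at 20.1 to 54.0 with a median of 32.9 in HFD 8 week. At 20 weeks it was at 52.4, 52.4, 54.5, 60.9 and 81.4 TPM on CHOW and at 4.61 to 9.84 with a median of 6.72 on HFD. The diets overlapped at 8 weeks and were far apart at 20 weeks. The HFD effect was -0.34 ± 0.25 at 8 weeks (adjusted p = 0.713) and -2.95 ± 0.24 at 20 weeks (adjusted p = 3.42e-07), and the interaction was -2.60 ± 0.35 (adjusted p = 0.00188).

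Cd209b (3917655 to 3926844) was at 28.2, 57.0, 61.2 and 92.1 TPM in CHOW 8 week and at 31.4 to 48.7 with a median of 43.3 in HFD 8 week. At 20 weeks CHOW libraries held 51.8, 66.8, 76.4, 77.04 and 110.5 TPM and HFD libraries 6.78 to 12.6 with a median of 9.47. The HFD effect was -0.43 ± 0.25 at 8 weeks (adjusted p = 0.6) and the order of the groups was that of Cd209a, with an interaction of -2.42 ± 0.34 (adjusted p = 0.00264). Cd209d (3871824 to 3878555) was at 39.3, 82.0, 119 and 125 TPM in CHOW 8 week against 54.5 to 119 in HFD 8 week, and at 91.9, 95.4, 98.9, 99.6 and 169 TPM in CHOW 20 week against 7.25 to 25.1 in HFD 20 week. Its HFD effect at 8 weeks was 0.07 ± 0.32, and the interaction was -2.86 ± 0.44 (adjusted p = 0.00673). Cd209g ran from 47.4 to 137 TPM in HFD 8 week and from 7.09 to 16.6 in HFD 20 week, with an HFD effect of -0.64 ± 0.27 at 8 weeks (adjusted p = 0.443) and an interaction of -2.02 ± 0.37 (adjusted p = 0.0184) that was lost without CHOW 8 week replicate 4 (adjusted p = 0.0708).

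The promoters of Cd209b and Cd209d are shown because their transcripts were the most alike of the 3 pairs aligned among Cd209a, Cd209b and Cd209d. These transcripts were 79.0% identical over 818 aligned bases and the 250-base windows 71.5% over 186, so reads may be shared between them. The bases before the annotated gene start are printed, from RefSeq in GRCm38.p6, and neither of the 2 motifs searched was in either window.
Cd209b, chr8:3926845-3927091, minus strand: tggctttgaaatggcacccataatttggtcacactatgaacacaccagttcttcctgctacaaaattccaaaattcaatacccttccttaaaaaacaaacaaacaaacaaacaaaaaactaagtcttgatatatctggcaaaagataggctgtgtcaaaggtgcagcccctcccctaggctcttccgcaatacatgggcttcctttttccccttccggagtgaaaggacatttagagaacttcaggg
Cd209d, chr8:3878556-3878749, minus strand: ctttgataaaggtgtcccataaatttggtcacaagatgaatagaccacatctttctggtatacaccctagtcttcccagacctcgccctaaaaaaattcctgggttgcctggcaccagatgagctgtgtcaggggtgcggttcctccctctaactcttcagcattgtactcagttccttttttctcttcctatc

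Lyve1 (chromosome 7, 110850607 to 110863239), a hyaluronan receptor of lymphatic vessels and perivascular macrophages, was at 55.9, 68.6, 77.2 and 111 TPM in CHOW 8 week and at 59.8 to 76.3 with a median of 67.9 in HFD 8 week. At 20 weeks it was at 45.3, 72.6, 74.5, 95.3 and 159.8 TPM on CHOW and at 14.8 to 24.5 with a median of 17.2 on HFD. The diets were level at 8 weeks and apart at 20 weeks, with an interaction of -1.96 ± 0.33 (adjusted p = 0.0155). Cd163, the scavenger receptor for haemoglobin bound to haptoglobin, went from 86.8 to 137 TPM in HFD 8 week to 25.99 to 66.2 in HFD 20 week, while CHOW 20 week libraries were at 183, 200.3, 225, 227 and 244. Its HFD effect was -0.59 ± 0.23 at 8 weeks (adjusted p = 0.407) and its interaction -1.82 ± 0.32 (adjusted p = 0.0155). Cd209a, the 1 call among 12 dendritic cell list genes, stood in a list with a median of -0.46 and 9 genes below 0. The endothelial list, which shares lymphatic vessels with Lyve1, had a median of -0.48 with 0 of 16 genes called by limma and none with an unadjusted p under 0.05, and lymphatic Prox1 and Mmrn1 were too low to be tested.

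Retnla (chromosome 16, 48842551 to 48844461), which encodes the secreted resistin-like molecule alpha and is induced in macrophages by interleukin 4 and interleukin 13, was by far the most abundant called gene. It was at 1647, 4676, 4808 and 6442 TPM in CHOW 8 week and at 3092 to 6888 with a median of 5829 in HFD 8 week. At 20 weeks CHOW libraries were at 1399, 2197, 2719.9, 3734 and 6179 TPM and HFD libraries at 257 to 878 with a median of 466. The HFD effect was 0.41 ± 0.40 at 8 weeks and -2.62 ± 0.38 at 20 weeks (adjusted p = 0.000169), and the interaction was -3.03 ± 0.55 (adjusted p = 0.0184). Its promoter is shown because it holds the STAT6 motif, TTC and GAA with 4 bases between them. STAT6 is the factor through which interleukin 4 acts. The match is in capitals, and 5.9% of the 32851 windows hold one. The windows of Mgl2, Rnase2a, Cd163 and the 4 CD209 genes did not hold it.
Retnla, chr16:48842359-48842550, plus strand: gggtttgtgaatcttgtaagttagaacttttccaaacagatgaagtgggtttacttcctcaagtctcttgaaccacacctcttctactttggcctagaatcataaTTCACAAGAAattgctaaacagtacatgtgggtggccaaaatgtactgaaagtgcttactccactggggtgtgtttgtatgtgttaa

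Mgl2, a galactose-binding lectin of alternatively activated macrophages and dendritic cells, was at 56.1, 175, 179 and 236 TPM in CHOW 8 week and at 108 to 294 with a median of 222 in HFD 8 week. It was at 75.3, 78.3, 86.0, 119.6 and 154 TPM in CHOW 20 week and at 17.2 to 42.0 with a median of 26.9 in HFD 20 week. As for Retnla, the diets overlapped at 8 weeks and not at 20, with an interaction of -2.35 ± 0.47 (adjusted p = 0.0317). Mgl2 and Retnla were the 2 calls among the 14 genes tested of the alternative activation list, whose median was -0.18, and the next genes by p were Ptgs1 at -1.51 (adjusted p = 0.058) and Clec10a at -0.77 (adjusted p = 0.33). The list was mixed, with 11 differences below 0 and 3 above 0, the highest at 1.20. At an unadjusted interaction p under 0.05 there were 5 genes below 0 and 1 above 0. At 20 weeks 4 list genes were called lower on HFD (4.99% of all genes) and 2 higher (9.32%).

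Rnase2a (chromosome 14, 51255262 to 51256112), a ribonuclease of the eosinophil-associated family, had the most negative interaction of all, and unlike the lectins it was higher on HFD at 8 weeks. It was at 2.49, 3.85, 7.10 and 7.39 TPM in CHOW 8 week and at 4.09 to 168 with a median of 83.5 in HFD 8 week. At 20 weeks it was at 2.94, 3.89, 4.75, 10.4 and 24.1 TPM on CHOW and from a listed 0 to 1.23 with a median of 0.456 on HFD. All but 1 of the HFD 8 week libraries lay above the CHOW 8 week range, and every HFD 20 week library lay below every library of the other groups. The HFD effect was 3.17 ± 0.69 at 8 weeks (adjusted p = 0.11) and -2.52 ± 0.65 at 20 weeks (adjusted p = 0.0148), with an adjusted interaction p of 0.0135. Its paralogue Rnase2b, 84.5% identical over 561 aligned bases, was too low to be tested, and Ear2 and Ear1 had interactions of -0.74 (adjusted p = 0.43) and 0.08 (adjusted p = 0.95). The eosinophil list had 6 genes tested, all below 0 and 0 called by limma, with 3 at an unadjusted p under 0.05 and a median of -1.20.

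**Figure D3:**
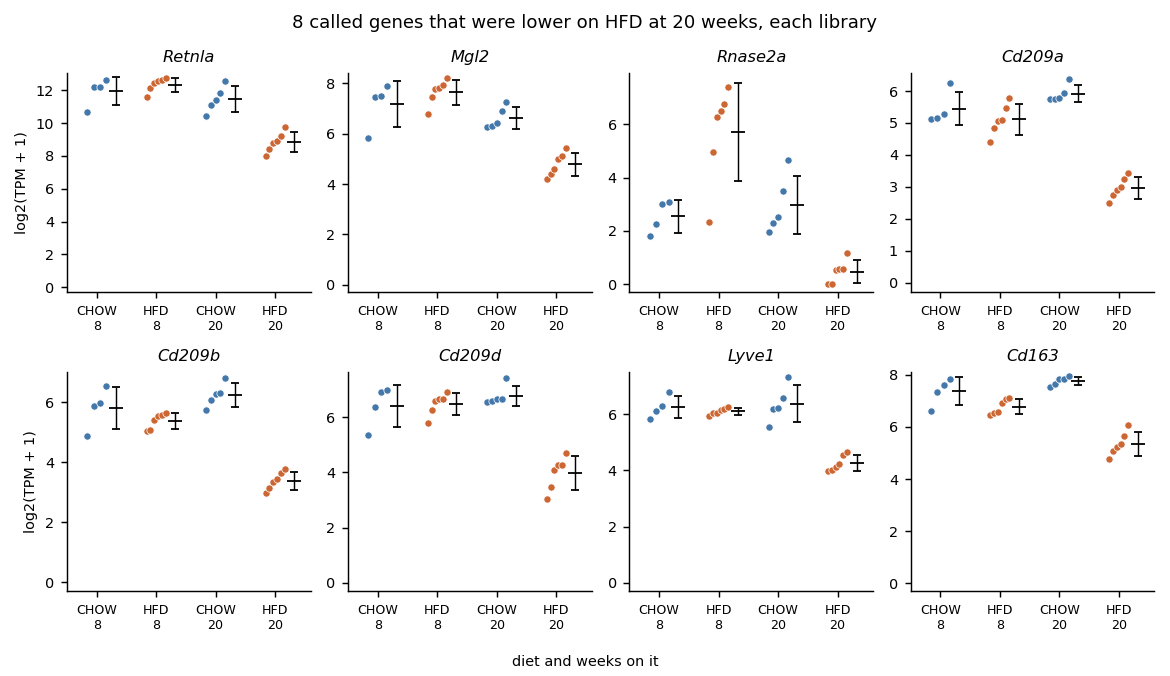
Each panel shows 1 called gene as log2(TPM + 1) in every library (points, CHOW blue and HFD orange, ordered by value within a group), with the group mean and SD as a black bar. In all 8 panels the HFD 20 week points lie below the CHOW 20 week points, and Rnase2a alone has most HFD 8 week points above those of CHOW 8 week.

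The macrophage and ribonuclease calls differed in how far they rested on single libraries. Rnase2a, Retnla, Cd209a, Cd209b, Cd209d, Lyve1 and Cd163 were called whichever 1 of the 21 libraries was omitted and in each of the 11 other alternatives, while Mgl2 was lost in 12 of the 21 omissions. The alternative activation list had 1 call, Retnla, without CHOW 8 week replicate 1 or 4, HFD 8 week replicate 1, 4 or 5, CHOW 20 week replicate 1, 3 or 5 or HFD 20 week replicate 1, 2, 3 or 6. It had 3 without CHOW 8 week replicate 3, HFD 8 week replicate 2 or 3, CHOW 20 week replicate 2 or HFD 20 week replicate 4. The number of resident macrophage calls was 4 without CHOW 8 week replicate 4 and 5 or 6 without any other library, and 5 without the 3 libraries together. Median-ratio scaling and quantile normalization gave 8 calls each.

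Regulatory T cell genes formed a smaller group of negative calls. Of 9 genes tested, 2 were called, all 9 were below 0, and the list median was -1.28. Foxp3, the defining transcription factor of regulatory T cells, was at 0.647, 0.964, 0.968 and 0.985 TPM in CHOW 8 week and at 0.485 to 3.47 with a median of 1.502 in HFD 8 week. It was at 2.00, 2.86, 3.45, 4.35 and 4.80 TPM in CHOW 20 week and at 0.229 to 1.17 with a median of 0.611 in HFD 20 week. The CHOW level was thus higher at 20 than at 8 weeks in every library, and the diets were apart at 20 weeks only, with an interaction of -1.93 ± 0.38 (adjusted p = 0.0308). Klrg1, an inhibitory receptor of effector lymphocytes, was at 3.10, 3.36, 3.71 and 3.73 TPM in CHOW 8 week and 2.33, 7.93, 8.35, 9.98 and 10.4 in CHOW 20 week. On HFD it ran from 2.36 to 6.89 TPM at 8 weeks and from 0.886 to 2.14 at 20 weeks, again apart from CHOW at 20 weeks only, with an interaction of -1.93 ± 0.41 (adjusted p = 0.0391).

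The receptor genes Il2ra and Tnfrsf4 came next, at -1.67 (adjusted p = 0.084) and -1.74 (adjusted p = 0.097). The whole T cell list was level, with a median of 0.05 over 17 genes and 0 called by limma, 1 with an unadjusted p under 0.05. These levels are low, and the calls rested on single libraries. Neither Foxp3 nor Klrg1 was called without any 1 of the 4 CHOW 8 week libraries, HFD 8 week replicate 1, CHOW 20 week replicate 1, 3, 4 or 5, or HFD 20 week replicate 1, 2 or 6, which left 0 calls in the list. Without HFD 8 week replicate 3 there were 5, without HFD 8 week replicate 2 or HFD 20 week replicate 4 there were 3, without CHOW 20 week replicate 2 there were 4, and without HFD 8 week replicate 5 or 6 or HFD 20 week replicate 3 there was 1.

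The other named negative genes were low in level and of mixed function. Mrgprg, a Mas-related G protein-coupled receptor, was at 0, 0, 0.512 and 1.07 TPM in CHOW 8 week and at 0.350 to 12.4 with a median of 6.12 in HFD 8 week. At 20 weeks it was at 1.49, 1.51, 4.32, 4.80 and 5.66 TPM on CHOW and from a listed 0 to 2.43 with a median of 0.671 on HFD, with an interaction of -3.43 ± 0.70 (adjusted p = 0.0334). Diets overlapped at both times. The HFD effect of Mrgprg was 2.16 ± 0.51 at 8 weeks (adjusted p = 0.132) and -1.27 ± 0.48 at 20 weeks (adjusted p = 0.0779). The sign of the estimate thus turned, with neither effect called. Igkv4-68, a kappa variable segment, also turned in sign, with an interaction of -4.91 ± 0.88 (adjusted p = 0.0167). Its HFD effect was not called at 8 weeks (adjusted p = 0.122) and was called lower at 20 weeks (adjusted p = 0.0255). For this gene 1 CHOW 20 week library held 141 TPM where the others held 7.598, 20.7, 23.5 and 28.5. The immunoglobulin and plasma cell list had a median of -0.85 with 0 of 16 called by limma, 3 with an unadjusted p under 0.05.

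Inpp5j, a phosphoinositide phosphatase, ran from 0.304 to 1.46 TPM in HFD 20 week against 5.89, 11.9, 13.2, 15.8 and 16.5 in CHOW 20 week, with an interaction of -2.55 ± 0.49 (adjusted p = 0.0263). Aif1l, an actin-binding protein, had an interaction of -2.32 ± 0.42 (adjusted p = 0.0184), Sprr1a, an envelope protein of squamous epithelia, one of -2.78 ± 0.56 (adjusted p = 0.0334) and Ankrd1, a target of mechanical signalling, one of -2.60 ± 0.55 (adjusted p = 0.0434). Without 1 library, Aif1l and Igkv4-68 stayed called in 20 of 21 fits, Inpp5j in 13, Mrgprg and Sprr1a in 8 and Ankrd1 in 6. For Aif1l, Sprr1a and Ankrd1 the HFD effect was 0.82 to 1.25 at 8 weeks and -1.35 to -1.60 at 20 weeks. At 8 weeks it was called for none of them (adjusted p = 0.366, 0.331 and 0.292), and at 20 weeks for each. The mesothelial list moved in the same direction and was not called. All 13 of its genes were below 0, with a median of -2.07, 11 at an unadjusted p under 0.05 and 0 called by limma. The smallest p was that of Muc16, a surface mucin (-2.61 ± 0.66, adjusted p = 0.11). The summed level of this list was 294 to 598 TPM in CHOW 8 week, 195 to 851 in HFD 8 week, 309 to 1048 in CHOW 20 week and 118 to 311 in HFD 20 week. The part of mesothelial cells in the negative calls was not tested.

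Over all 38 lists, 22 of the 474 listed genes tested were called (4.64%, against 0.297% of all genes), spread over 9 lists. The lists were drawn up with earlier results of these data known, so this share is a description. Lysosomal genes had differences above 0 for 20 of 20 genes tested, with a median of 0.82 and 15 at an unadjusted p under 0.05. Ctsd, the protease cathepsin D, ran from 871 to 2542 TPM in HFD 8 week and 2964 to 5223 in HFD 20 week without passing the test (1.79 ± 0.44, adjusted p = 0.096). Lipid-associated macrophage genes had a median of 1.33 over 17 genes, with 12 at an unadjusted p under 0.05 and 0 called by limma. Their median HFD effect was already 0.96 at 8 weeks and was 2.13 at 20 weeks. Cd63, Lipa and Lpl, a vesicle protein and the lysosomal and secreted lipases, had the smallest p, at 0.86, 1.33 and 1.33 (adjusted p = 0.19, 0.22 and 0.26).

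Type I interferon response genes were below 0 for 15 of 15 tested, with a median of -1.22 and 0 called by limma, 9 with an unadjusted p under 0.05. Median-ratio scaling gave 2 calls and quantile normalization 5. The summed level was 264 to 401 TPM in CHOW 8 week, 269 to 426 in HFD 8 week, 601 to 1336 in CHOW 20 week and 222 to 537 in HFD 20 week, so the CHOW 20 week libraries stood above the rest. Ifit3, an interferon-induced protein, showed this at 18.6, 38.5, 53.9, 59.0 and 59.6 TPM in CHOW 20 week against 8.72 to 22.6 in HFD 20 week (-1.97 ± 0.46, adjusted p = 0.084). Gzmb, a protease of cytotoxic cells that mast cells can also express, was the 1 call of 13 in the natural killer and cytotoxic list. It ran from 4.59 to 7.94 TPM in HFD 8 week and from 12.7 to 30.1 in HFD 20 week, with an interaction of 1.52 ± 0.30 (adjusted p = 0.0308). This call held in 9 of the 21 fits without 1 library. It was lost under median-ratio scaling, quantile normalization, the replicate block and with no filter on low values. Leaving erythroid, germ cell, seminal vesicle and epididymis genes out of the total also lost it. Gzma and Prf1 were at -0.99 and -0.67 and were not called. The type 2 list had a median of -0.91 with 0 of 14 genes called by limma and 4 at an unadjusted p under 0.05. Its chemokines Ccl17 and Ccl24 had the smallest p, at -2.60 and -1.58 (adjusted p = 0.13 for both).

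The extracellular matrix and remodelling panel had a median of 0.09, with 0 of 18 genes called by limma and 2 at an unadjusted p under 0.05. Its smallest p was that of the gelatinase Mmp2 (1.25 ± 0.29, adjusted p = 0.072). Cell cycle genes (median 0.41, 20 genes) and nuclear-encoded respiratory chain genes (median 0.36, 19 genes) were above 0 throughout, and adipocyte genes (median -0.14, 19 genes) were mixed, with 0 called by limma in each. At an unadjusted p under 0.05 there were 1, 5 and 3 genes in these lists. After quantile normalization the respective medians were 0.20, 0.14 and -0.35. Germ cell genes had the highest list median, 3.16 over 12 genes, with 0 called by limma, 2 at an unadjusted p under 0.05 and a spread within HFD 20 week from 30.8 to 14057 TPM in sum. Erythroid genes had a median of -1.80 over 8 genes, with 0 called by limma and 5 at an unadjusted p under 0.05, and 2 called after quantile normalization.

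**Figure D4:**
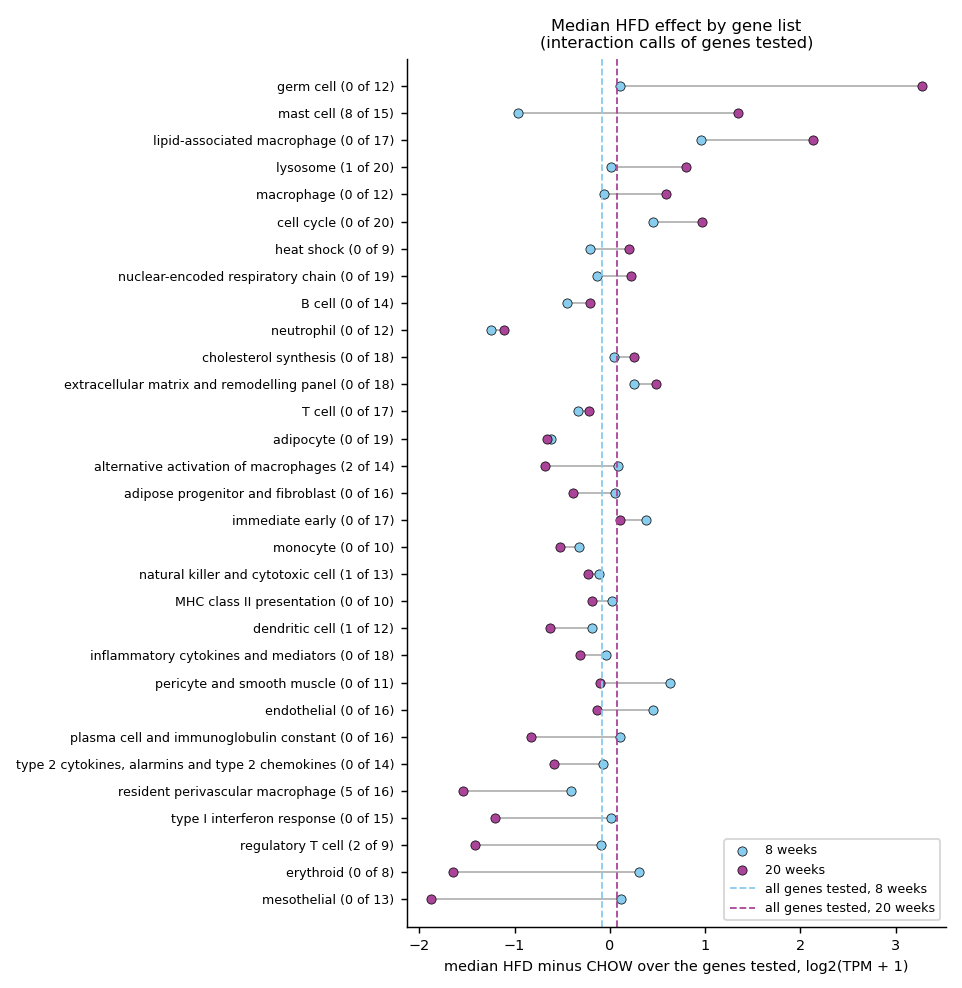
For each gene list with 8 or more genes tested, the median HFD minus CHOW difference in log2(TPM + 1) at 8 weeks (light blue) and at 20 weeks (purple), joined by a line, with the medians over all genes tested as dashed lines and the number of interaction calls beside the name. Lists are ordered by their median interaction; the mast cell list lies well below the dashed line at 8 weeks and well above it at 20 weeks.

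The 34 week libraries (CHOW n = 7, HFD n = 6) took no part in the interaction and so give a separate look at the same genes. Of the 50 genes, 45 were tested at 34 weeks, and the HFD effect had the sign of the 20 week effect for 25 of 26 positive and 18 of 19 negative genes, where 64.6% of all genes were above 0. The median was 1.59 over the positive and -0.99 over the negative genes, against 0.10 over all. Of the 45, 6 were called (13.3%, against 0.243% of all 13982 genes tested), all positive, and 33 of the 45 had an unadjusted p under 0.05. The exceptions in sign were Tmem120a, an endoplasmic reticulum and nuclear envelope protein outside the naming rule, and Igkv4-68. The negative genes Foxp3, Inpp5j, Ankrd1 and Mrgprg were too low to be tested at 34 weeks. Foxp3 had means of 0.659 TPM in CHOW 34 week and 0.699 in HFD 34 week, while Inpp5j, Ankrd1 and Mrgprg had lower means on HFD. The regulatory T cell list had a median HFD effect of 0.20 at 34 weeks, with 6 of 8 genes tested above 0 and 0 called by limma.

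The called genes at 34 weeks were Mcpt4, Cpa3, Cma1, Cadm1, Cyp11a1 and Atp8b5, the last of these an aminophospholipid transporter outside the naming rule. Mcpt4 ran from 28.5 to 246 TPM with a median of 96.4 in CHOW 34 week and from 235 to 769.6 with a median of 556 in HFD 34 week, with an HFD effect of 2.71 ± 0.47 (adjusted p = 0.0395). Cpa3 ran from 10.0 to 128 TPM in CHOW 34 week and from 87.0 to 362 in HFD 34 week (2.70 ± 0.51, adjusted p = 0.0481). Cyp11a1 ran from 0.541 to 4.27 TPM on CHOW and from 6.72 to 22.7 on HFD (2.48 ± 0.34, adjusted p = 0.0171). The diets overlapped at 34 weeks for the proteases and were apart for Cyp11a1 and Cadm1.

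At 34 weeks none of the CD209 genes, Cd163, Lyve1 or Retnla passed the test. Cd209b and Cd163 had HFD effects of -1.59 ± 0.57 (adjusted p = 0.271) and -1.54 ± 0.41 (adjusted p = 0.149). Cd209a ran from 3.88 to 46.6 TPM with a median of 35.0 in CHOW 34 week and from 4.83 to 23.1 with a median of 7.61 in HFD 34 week (-1.59 ± 0.49, adjusted p = 0.214). Retnla was at a median of 511 TPM on CHOW and 210.1 on HFD at 34 weeks (-1.16 ± 0.75, adjusted p = 0.503), so its CHOW level was also well below that of the earlier table, which was made apart. Lyve1 had an HFD effect of -0.61 ± 0.43 (adjusted p = 0.54). The number of interaction genes called at 34 weeks went from 6 to 0 without CHOW 34 week replicate 7, HFD 34 week replicate 2 or HFD 34 week replicate 4, and to 1 without HFD 34 week replicate 3. It was 2 without CHOW 34 week replicate 1, 3 or 5 or HFD 34 week replicate 5 or 6, 3 without CHOW 34 week replicate 6 and 16 without CHOW 34 week replicate 4. The adipocyte list had a median HFD effect of -2.20 at 34 weeks, with 0 of its 19 genes above 0, and its part in the 34 week values was not tested.

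**Figure D5:**
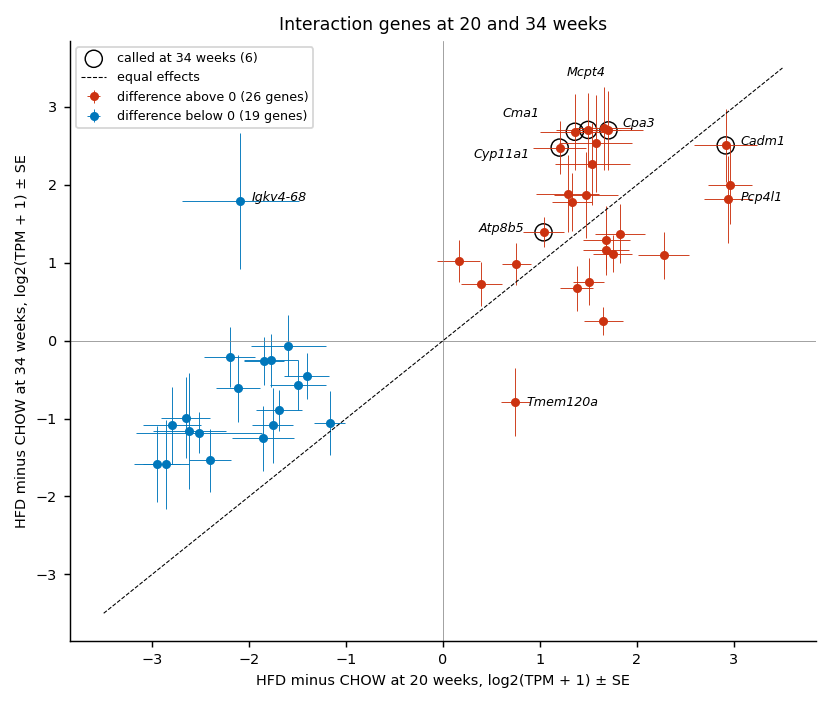
The 45 interaction genes tested at 34 weeks, placed by their HFD minus CHOW difference at 20 weeks (horizontal axis) and at 34 weeks (vertical axis), both in log2(TPM + 1) with SE bars, red for a positive and blue for a negative interaction. All but Tmem120a and Igkv4-68 lie in the quadrants of equal sign, and the 6 genes called at 34 weeks are ringed.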

How the data were processed

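RNA-seq was done on SVF pellets treated with an erythrocyte lysing buffer, with stranded mRNA libraries. The authors trimmed reads with Trimmomatic and quantified gencode M10 transcripts (mm10) with Salmon, and the deposited values are TPM summed to genes. Neither tool's version is given in the sources used here. Counts and depth are unknown, so the study's DESeq2 test was not run. Symbols and coordinates came from gencode M21 (GRCm38), which matched 31791 of 32098 gene IDs. A gene was tested when 4 or more of the 21 libraries held 1 TPM or more of it, on log2(TPM + 1) with limma 3.58.1 in R 4.3.3 (1 mean per group, trended eBayes, two-sided, Benjamini-Hochberg, threshold 0.05). Differences of low genes are understated by the pseudocount of 1. All 4 component comparisons came from this fit. The 34 week table was fitted alone (1 TPM in 6 or more libraries). The script was tested on simulated data. Text names the 15 most positive and 15 most negative called genes with a mean of 5 TPM or more in a group, up to 4 genes of each list by p, and others only where said. Members and the 38 lists were chosen with earlier results of these data known. Transcripts were aligned with Biopython 1.88. The result of 1 called gene is not reported here.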

Additional observations from a re-analysis of the deposited data

Results flagged for a closer look

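The HFD effect differed between 20 and 8 weeks by the limma interaction test for the named genes, as log2 differences. The positive ones were Tpsab1 at 3.20, Pcp4l1 and Mcpt4 at 2.75, Cpa3 at 2.70, Tpsb2 at 2.62, Fcer1a at 2.61, Cma1 at 2.47, Tph1 at 2.44, Tpsg1 at 2.35, Cadm1 at 2.21, Fbln7 at 2.01, Cyp11a1 at 2.00, Nfasc at 1.98, Abcb4 at 1.87 and Fndc5 at 1.68. The negative ones were Rnase2a at -5.69, Igkv4-68 at -4.91, Mrgprg at -3.43, Retnla at -3.03, Cd209d at -2.86, Sprr1a at -2.78, Cd209a and Ankrd1 at -2.60, Inpp5j at -2.55, Cd209b at -2.42, Mgl2 at -2.35, Aif1l at -2.32, Cd209g at -2.02, Lyve1 at -1.96 and Klrg1 at -1.93.

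In 8 of 120 groups of values, the highest or lowest library was farther from its group than Dixon's 95% limit, where chance gives about 1 in 20. CHOW 8 week replicate 4 was highest for Mcpt4 (179.8 TPM) and Fbln7 (3.20 TPM), and CHOW 8 week replicate 2 for Cd209a (74.5 TPM). HFD 8 week replicate 2 was highest for Abcb4 (5.19 TPM). CHOW 20 week replicate 1 was highest for Cd209d (169 TPM) and lowest for Pcp4l1 (0.441 TPM). CHOW 20 week replicate 2 was lowest for Klrg1 (2.33 TPM) and HFD 20 week replicate 3 lowest for Aif1l (1.30 TPM).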

How the results depend on the processing

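The 50 interaction calls became 32 with no filter, 85 after median-ratio scaling, 104 after quantile normalization, 400 with sample quality weights and 32 with the replicate number as a block. They ranged from 13 to 151 without 1 library. The other alternatives stayed within 1.5 times, with 42 calls at a pseudocount of 0.1 TPM and 39 without the 3 libraries that hold most erythroid, seminal vesicle or germ cell RNA. Of the 50 genes, 14 were called in each of the 11 alternatives that were not single omissions. Both in these and in all 21 fits without 1 library, 11 genes were called. The 6 interaction genes called at 34 weeks became 0 at a pseudocount of 0.1 TPM, 2 with no filter, 23 with sample quality weights, 0 with the replicate block, 0 without CHOW 34 week replicates 5, 6 and 7 together, and 0 to 16 without 1 library. The causes of these changes were not tested. No difference changed sign. Samples share only a replicate number across groups, with a median correlation of deviations of 0.072 over 28 same-number pairs, so the block does not pair animals. Read depth is unknown, so no counting interval is given, and values under about 1 TPM rest on an unknown number of reads.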
